A study of Macaca mulatta with 24 samples.

Results

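The 9 genes described here, CD14, CSF1R, CD68, MS4A7, LYZ, VCAN, FCN1, CLEC7A and CD36, are used in blood as markers of classical monocytes and of the myeloid cells close to them. Members were taken by name: every non-control probe whose gene name in the scanner output was one of the 9. This gave 11 of the 43603 probes on the array, for 8 of the 9 genes. CSF1R, the receptor for colony stimulating factor 1, had no probe under that name and is not measured here. CLEC7A had 3 probes, LYZ had 2 and each of the other 6 genes had 1.

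Blood was drawn from adult Chinese-origin rhesus macaques (Macaca mulatta) before and after total body irradiation with 4 Gy, and whole-blood RNA cleared of globin transcripts was hybridized to 24 one-colour arrays. The pre-irradiation group held 7 arrays and the day 3, day 5 and day 7 groups held 4, 6 and 7, from 4 males (numbers 1 to 4) and 3 females (numbers 5 to 7). All animals were given the same dose, the labels name no drug or transgene, and the comparison group was the blood of these animals before exposure, with no sham-irradiated array among the samples analysed. The methods put the first sample 3 days before exposure and name a cobalt gamma source, whereas the labels put it at day 0 and name X-rays. The measured quantity is the log2 processed signal of a probe after each array was normalized to the median array, called the level below, and a difference of 1 is a 2-fold difference. In whole blood, a changed number of cells of a type and a changed amount of RNA per cell cannot be told apart.

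Classical monocytes are made in the bone marrow, circulate for a short time and either enter tissue, where they can become macrophages, or pass into the nonclassical state that patrols vessel walls. CD14 is a receptor for bacterial lipopolysaccharide that works with TLR4, CLEC7A (dectin-1) recognizes fungal glucans and signals through SYK and CARD9, and CD36 is a scavenger receptor for lipids that platelets and erythroid precursors also carry. FCN1 (M-ficolin) is a secreted and surface-bound lectin of the complement system, LYZ (lysozyme) is a bacterial cell wall-cleaving enzyme of granules shared by neutrophils and monocytes, and CD68 is a lysosomal membrane glycoprotein. VCAN (versican) is a matrix proteoglycan abundant in classical monocytes, and MS4A7 is a membrane-spanning protein that is higher in nonclassical monocytes and macrophages than in classical ones. The 9 genes therefore do not mark a single state, and none is restricted to monocytes.

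All 11 probes were 60 bases long and all 11 passed the filter on dim signal (a spot counted as well above background by the scanner software on 4 or more of the 24 arrays). The header of the scanner output gives positions on the rhesus build rheMac2. Whether a probe lies in coding sequence or in a UTR was not looked up, since no annotation of that build was used here. The FCN1 probe is shown with its closest relative on the array, a probe for FCN2 (ficolin 2, a plasma lectin of the same family), because they share a run of 24 bases, given in capitals. FCN1 lies at chr15:3386243-3386302 (plus strand) and FCN2 at chr15:3409046-3409105 (minus strand).
FCN1: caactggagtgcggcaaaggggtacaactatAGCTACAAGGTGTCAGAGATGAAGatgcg
FCN2: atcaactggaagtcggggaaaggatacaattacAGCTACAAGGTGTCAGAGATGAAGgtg
No other member probe shared 16 or more bases in the same orientation with any other probe. The signal of FCN1 could still include RNA of the FCN2 family, so the levels of the FCN2 probes are given beside the FCN1 result.

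For MS4A7, the member with the largest change at day 3, the first 30 bases of the probe are shown, and its genome match runs over chr14:13661571-13661629 (minus strand). CD14 lies at chr6:137033643-137033702 (minus strand) and the dimmer LYZ probe at chr11:66347924-66347983 (plus strand), shown because these well-known markers were not called on the days when MS4A7 was.
MS4A7: tcatggtcaagtgtgattagactttcctga
CD14: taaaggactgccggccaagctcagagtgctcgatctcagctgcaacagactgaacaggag
LYZ: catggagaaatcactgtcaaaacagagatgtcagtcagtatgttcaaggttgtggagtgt
The CD68 probe lies at chr16:7308411-7308470 (plus strand). A further probe described as the CD68 molecule but not named CD68 lies outside the rule, and its values are given below beside those of CD68.

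Each of the 6 slides carried 4 arrays, and scanning took place in 2 sessions. The first session held 6 pre-irradiation and 6 day 7 arrays, and the second held all 4 day 3 arrays, all 6 day 5 arrays, and the pre-irradiation and day 7 arrays of animal 5, so day 3 and day 5 share a session with only 1 pre-irradiation array. Between 48.3 and 61.2% of probes were well above background on an array. The day 7 array of animal 2 stood apart as the dimmest, with 48.3% of probes well above background and a shift of −2.03 to reach the median array, and values without it are given below for MS4A7, FCN1 and VCAN, an alternative chosen after seeing the data. No member probe was saturated on any array.

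Relative to pre-irradiation blood, 2 of the 11 probes, those of MS4A7 and FCN1, were higher at day 3 and again at day 5, and none passed the test at day 7 (limma, two-sided, Benjamini-Hochberg adjusted p under 0.005 over all probes tested). Among all probes tested, 13.5% were called at day 3, 16.7% at day 5 and 10.9% at day 7. Those called as higher were 5.43, 7.16 and 3.6% on these days, against 2 of 11, 2 of 11 and 0 of 11 member probes. Those called as lower were 8.02, 9.58 and 7.27%, against 0 of 11 on each day. At a looser adjusted p under 0.05, 8 member probes were higher at day 3 (16.3% of all probes), 8 at day 5 (17.4%) and 4 at day 7 (13.2%). None was lower, where 19.4, 18.1 and 14.5% of all probes were. The median log2 change of the 11 probes was 1.38, 1.27 and 0.87 on the 3 days, and that of all probes tested was 0.015, 0.023 and 0.017. At day 7 the count at an unadjusted p under 0.05 was 6 of 11, against 39.5% of all probes. LYZ stood below its pre-irradiation mean in both probes on all 3 days, without passing either threshold in this fit.

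**Figure D1:**
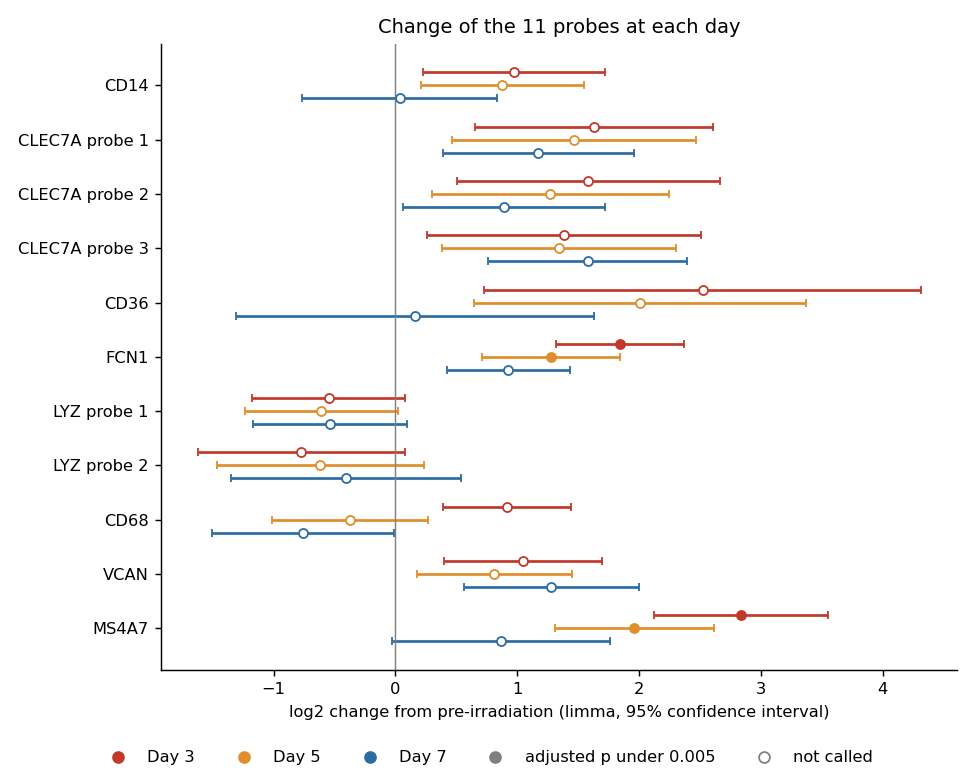
Log2 change from pre-irradiation of each of the 11 probes at day 3 (red), day 5 (orange) and day 7 (blue), with 95% confidence intervals from limma; filled points have an adjusted p under 0.005. Only MS4A7 and FCN1 have filled points, at day 3 and day 5, and both LYZ probes lie left of 0 on all 3 days.

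MS4A7, the membrane-spanning protein of nonclassical monocytes and macrophages, had the largest change at day 3 and, among called probes, at day 5. Its level ran from 11.89 to 12.91 before irradiation, with a median of 12.80. At day 3 the 4 animals with an array, numbers 1, 2, 4 and 7, had levels of 15.22, 14.40, 15.78 and 16.08. Each day 3 array stood above all 7 pre-irradiation arrays. The day 5 arrays ran from 13.25 to 15.32 (median 14.57) and still did not overlap with the pre-irradiation arrays. The day 7 arrays ran from 12.16 to 15.48 (median 13.26), and 5 of the 7 stood above all pre-irradiation arrays. The log2 change was 2.83 ± 0.33 (SE) at day 3, a 7.13-fold rise (adjusted p = 0.000174), and 1.96 ± 0.30 at day 5, a 3.89-fold rise (adjusted p = 0.000292). At day 7 it was 0.87 ± 0.42 (adjusted p = 0.138), and 1.08 ± 0.41 (adjusted p = 0.0600) without the dim array of animal 2.

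FCN1, the complement lectin, changed in the same order with smaller steps. Before irradiation its level ran from 12.79 to 13.38 (median 13.23). At day 3 animals 1, 2, 4 and 7 had 15.28, 14.49, 15.55 and 14.46. The day 5 arrays ran from 13.54 to 15.25 (median 14.49) and the day 7 arrays from 13.10 to 14.84 (median 14.21). All day 3 and day 5 arrays and 6 of the 7 day 7 arrays stood above every pre-irradiation array. FCN1 rose by 1.84 ± 0.24 at day 3, or 3.59-fold (adjusted p = 0.000341), and by 1.27 ± 0.26 at day 5, or 2.42-fold (adjusted p = 0.00222). At day 7 the change was 0.93 ± 0.24 (adjusted p = 0.00975), and without the dim day 7 array of animal 2 it was 1.08 ± 0.20 (adjusted p = 0.00181).

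The FCN2 probe with the shared run stayed near background. It was well above background on 2 of 7 arrays before irradiation and on 0 of 4, 2 of 6 and 2 of 7 arrays on days 3, 5 and 7. Its median level in these groups was 5.18, 3.66, 4.66 and 3.94, and signals this dim give no direction. A second FCN2 probe had means of 6.07 before irradiation and 6.21, 5.87 and 5.32 on the 3 days. A further probe described as like ficolin 2 was well above background on all day 3 and day 5 arrays, with means of 6.88 before irradiation and 8.02, 7.64 and 7.40 after it, and its arrays overlapped with the pre-irradiation arrays on each day. The part of RNA of this family in the FCN1 values was not tested. MS4A7 and FCN1 were the only member probes whose day 3 or day 5 arrays all stood above every pre-irradiation array, 2 of 11 on each day, against 8.63% of all probes at day 3 and 5.66% at day 5. At day 7 no member probe did so (2.58% of all probes).

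**Figure D2:**
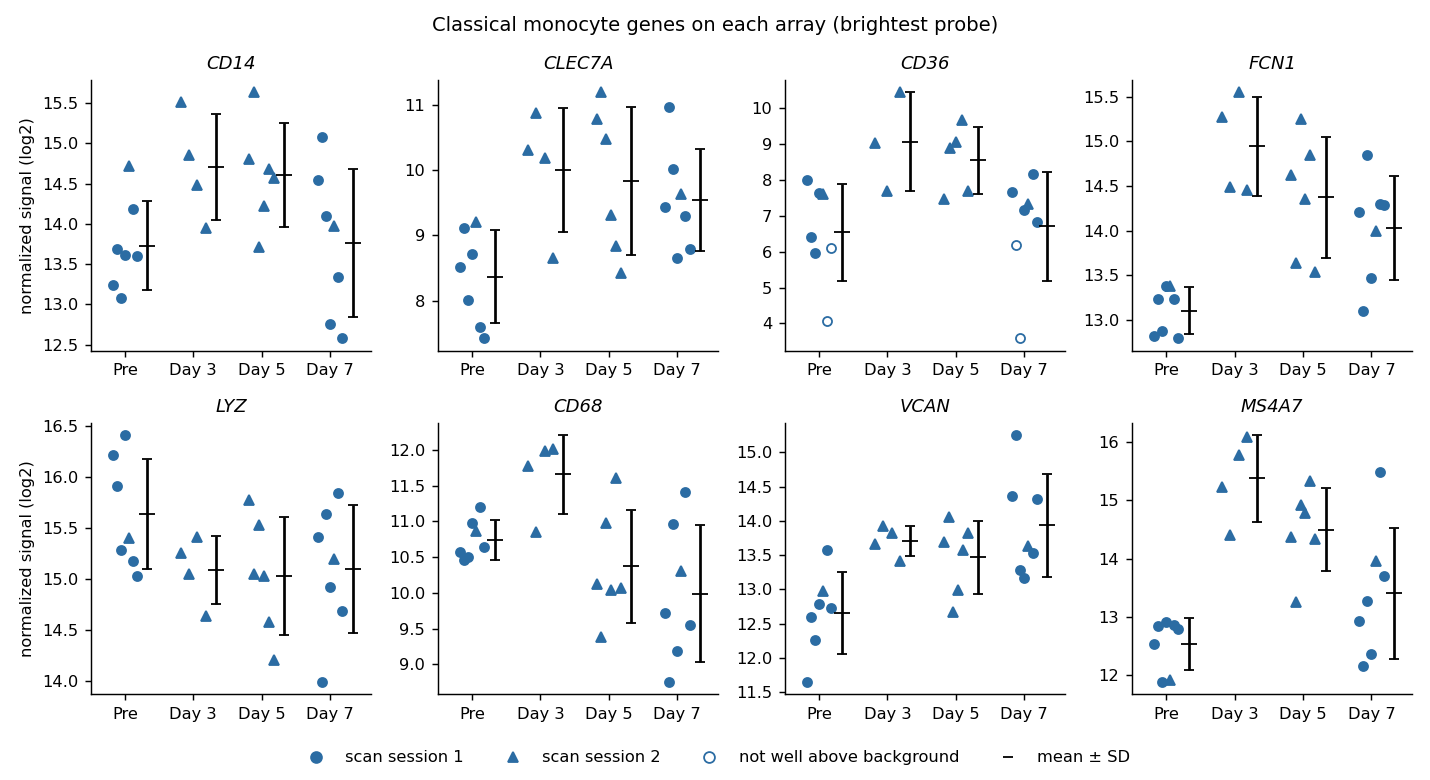
Level (log2 normalized signal) on every array for the brightest probe of each of the 8 genes, by group, with circles for scan session 1, triangles for scan session 2, open symbols for arrays where the probe was not well above background, and the mean ± SD of each group. Day 3 and day 5 arrays of MS4A7 and FCN1 lie above all pre-irradiation arrays, whereas those of CD14, CLEC7A, LYZ and VCAN overlap with them.

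Scan session, animal and background correction each bear on these calls. The 1 pre-irradiation array scanned in the same session as day 3 and day 5 had 11.91 for MS4A7 and 13.38 for FCN1. It is among the pre-irradiation arrays already compared above, so it adds no separate comparison. With session as a block, MS4A7 changed by 2.87 (adjusted p = 0.0105) at day 3 and 2.0 (adjusted p = 0.0458) at day 5, and FCN1 by 1.72 (adjusted p = 0.0203) and 1.15 (adjusted p = 0.0878), so no call at 0.005 was kept. Under that block 3% of all probes were called at day 3, 5.44% at day 5 and 14.4% at day 7. In a fit blocked by animal, MS4A7 stayed called on both days (2.60, adjusted p = 0.00440 at day 3, and 1.86, adjusted p = 0.00286 at day 5), while FCN1 changed by 1.89 (adjusted p = 0.00581) and 1.32 (adjusted p = 0.00607) and lost both calls. In it, 2.8, 15.4 and 8.58% of all probes were called on the 3 days. With all groups in 1 fit blocked by animal, chosen after seeing the data, 5, 5 and 3 of the 11 member probes were called, against 20.6, 23.2 and 19.3% of all probes. At day 3 these were MS4A7, FCN1 (2.07, adjusted p = 5.03e-05), CD68 and the brighter 2 CLEC7A probes. At day 5 they were MS4A7, FCN1 (1.29, adjusted p = 0.000588) and all 3 CLEC7A probes, and at day 7 VCAN and the brightest and dimmest CLEC7A probes. The FCN1 call at day 5 was also lost without animal 1 (1.18, adjusted p = 0.0137), animal 3 (1.06, adjusted p = 0.00911), animal 4 (1.32, adjusted p = 0.00689) or animal 6 (1.2, adjusted p = 0.00923). After normexp background correction MS4A7 changed by 2.74 (adjusted p = 0.0122) and 1.39 (adjusted p = 0.159) and FCN1 by 1.75 (adjusted p = 0.0346) and 0.69 (adjusted p = 0.385) at days 3 and 5, none of them called. With it 0.512 and 0.881% of all probes were called on these days. With slide as a block the changes were 3.43 (adjusted p = 0.0105) and 3.45 (adjusted p = 0.0807) for MS4A7 and 1.78 (adjusted p = 0.0644) and 1.09 (adjusted p = 0.509) for FCN1, where 1.63 and 0.155% of all probes were called.

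Among the surface receptors, CD14, the lipopolysaccharide co-receptor that defines classical monocytes in cytometry, did not pass the test on any day. Its level ran from 13.08 to 14.71 before irradiation (median 13.61). At day 3 animals 1, 2, 4 and 7 had 15.52, 14.86, 14.48 and 13.95. The day 5 arrays ran from 13.71 to 15.64 (median 14.63) and the day 7 arrays from 12.58 to 15.08 (median 13.97). All 3 groups overlapped with the pre-irradiation arrays. The log2 change was 0.97 ± 0.34 at day 3 (adjusted p = 0.0447), 0.88 ± 0.31 at day 5 (adjusted p = 0.0409) and 0.03 ± 0.38 at day 7 (adjusted p = 0.956). The highest pre-irradiation array, that of animal 5, was the one scanned with the day 3 and day 5 arrays, and only 2 of 4 day 3 arrays and 2 of 6 day 5 arrays exceeded it. Within animals CD14 was higher than before irradiation in 4 of 4 at day 3, by 0.35 to 2.28, and in 6 of 6 at day 5, by 0.49 to 1.95. In the fit blocked by animal it changed by 1.17 (adjusted p = 0.0402) and 1.04 (adjusted p = 0.00799). With session as a block the change was 0.38 (adjusted p = 0.740) at day 3 and 0.28 (adjusted p = 0.797) at day 5, and with slide as a block the sign turned (−0.11, adjusted p = 0.943, and −0.67, adjusted p = 0.744). Without animal 1 the day 3 change was 0.62 (adjusted p = 0.215), and after normexp correction the day 5 change was 0.34 (adjusted p = 0.576).

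CLEC7A, the fungal glucan receptor, stood above its pre-irradiation mean in all 3 probes on all 3 days without a call at 0.005. The probes lie at chr11:10317708-10317767, chr11:10311130-10311189 and chr11:10319019-10319078 (minus strand), in order of brightness, and all carry the same RefSeq transcript in the scanner output. The brightest ran from 7.42 to 9.21 before irradiation (median 8.52). At day 3 animals 1, 2, 4 and 7 had 10.31, 10.87, 10.18 and 8.65 on it, and all but animal 7 exceeded every pre-irradiation array. Its day 5 arrays ran from 8.42 to 11.19 (median 9.89) and its day 7 arrays from 8.65 to 10.97 (median 9.43). The log2 change of that probe was 1.63 ± 0.45 (adjusted p = 0.0153), 1.47 ± 0.47 (adjusted p = 0.0250) and 1.17 ± 0.37 (adjusted p = 0.0282) at days 3, 5 and 7. The second probe changed by 1.58, 1.27 and 0.89 on these days (adjusted p = 0.0274, 0.0421 and 0.101). The dimmest changed by 1.38, 1.34 and 1.58 (adjusted p = 0.0540, 0.0312 and 0.00726). The 3 probes had changes of like size at days 3 and 5, and at day 7 the dimmest had the largest and the second the smallest. Only 1 pre-irradiation array was scanned in the session of days 3 and 5. The brightest, second and dimmest probes exceeded it on 3, 2 and 3 of 4 day 3 arrays and on 4, 2 and 5 of 6 day 5 arrays. In the fit blocked by animal, the brightest (1.61, adjusted p = 0.00304) and the second probe (1.54, adjusted p = 0.00384) were called at day 5 and the dimmest at day 7 (1.58, adjusted p = 0.00343). With slide as a block the brightest changed by 0.58 (adjusted p = 0.636) at day 3 and, with the sign turned, by −1.38 (adjusted p = 0.441) at day 5, and after normexp correction by 0.83 (adjusted p = 0.0892) at day 5.

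CD36, the lipid scavenger receptor, had the widest spread of the brightest probes before irradiation and at days 3 and 7. Its level ran from 4.08 to 7.99 before irradiation (median 6.40), and the arrays of animals 6 and 7 there were not well above background. At day 3 it was 9.04, 7.69 and 10.45 in animals 1, 2 and 4, and the spot of animal 7 was left out as an outlier. The 5 day 5 arrays with a value ran from 7.47 to 9.67 (median 8.88), with animal 1 left out, and the day 7 arrays from 3.58 to 8.15 (median 7.17). The log2 change was 2.52 ± 0.82 (adjusted p = 0.0336) at day 3, 2.01 ± 0.63 (adjusted p = 0.0247) at day 5 and 0.16 ± 0.69 (adjusted p = 0.886) at day 7, none of them called. With the pre-irradiation spots of animals 6 and 7 and the day 7 spots of animals 2 and 3 not well above background, the CD36 changes that use those groups are rough values. In the fit blocked by animal CD36 changed by 1.72 (adjusted p = 0.0221) at day 3 and 2.51 (adjusted p = 0.0519) at day 5. After normexp correction the day 3 change was 1.54 (adjusted p = 0.116). Without animal 6 the day 5 change was 1.32 (adjusted p = 0.0613). With session as a block it was 1.67 (adjusted p = 0.377) at day 3 and 1.16 (adjusted p = 0.522) at day 5. Platelets also carry CD36, and all 10 platelet genes tested were higher at day 3, when the mean level of the list was 12.42 to 13.35 against 9.38 to 10.67 before irradiation, 10.60 to 11.70 at day 5 and 9.61 to 11.25 at day 7. Pearson's r of CD36 with the mean level of the platelet list was 0.56 over its 22 arrays with a value, and 0.083 after removal of group means. The part of platelet RNA in the CD36 values was not tested.

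**Figure D3:**
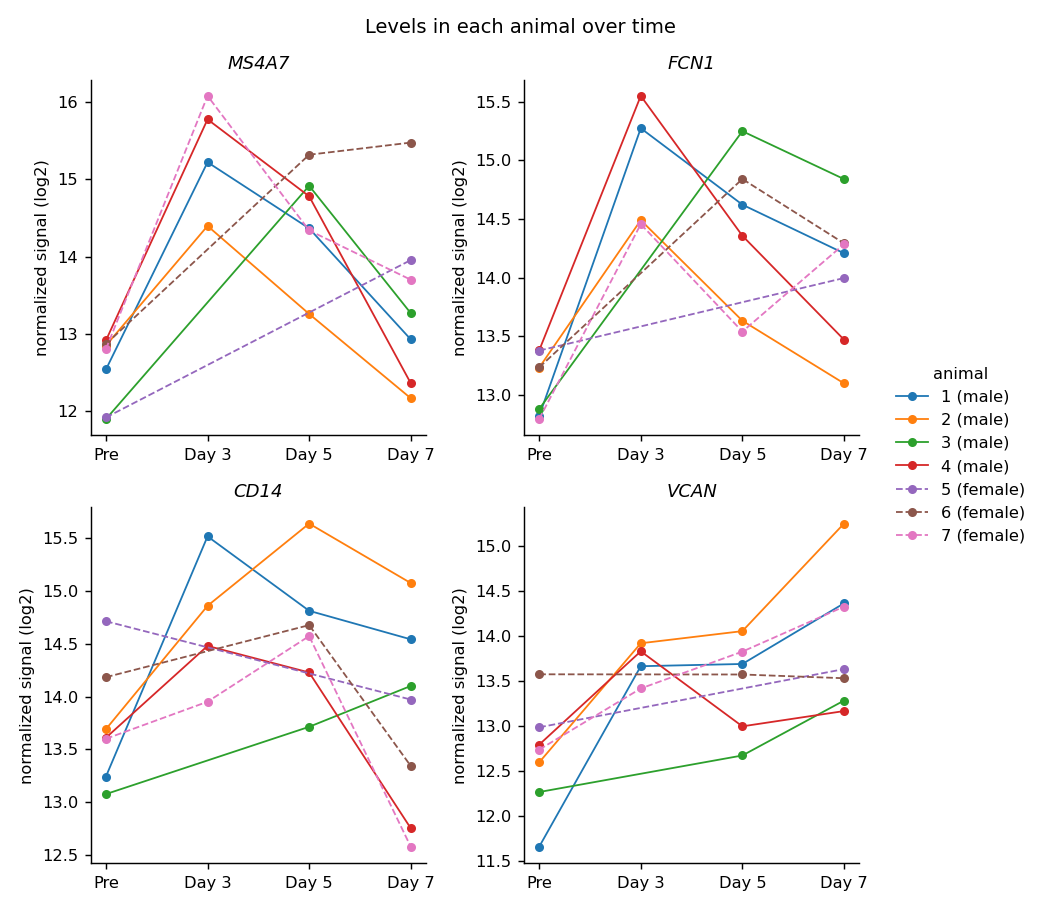
Level (log2 normalized signal) of the brightest probe of MS4A7, FCN1, CD14 and VCAN against day, 1 line per animal, with solid lines for the 4 males and dashed lines for the 3 females. MS4A7 is higher at day 3 than before irradiation in all 4 animals with a day 3 array, whereas at day 7 CD14 stands above its own pre-irradiation value in animals 1, 2 and 3 and below it in animals 4 to 7.

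LYZ, the lysozyme of granules, did not pass the test on any day, with mean levels below those before irradiation. The brighter probe, at chr11:66348348-66348407 (plus strand), ran from 15.04 to 16.41 before irradiation (median 15.41). At day 3 animals 1, 2, 4 and 7 had 15.26, 15.05, 15.41 and 14.64, at day 5 the arrays ran from 14.21 to 15.78 (median 15.04) and at day 7 from 14.00 to 15.84 (median 15.20). Its log2 change was −0.55 ± 0.29 (adjusted p = 0.155), −0.61 ± 0.29 (adjusted p = 0.122) and −0.54 ± 0.30 (adjusted p = 0.194), with a 95% confidence interval of −1.17 to 0.08 at day 3. The second LYZ probe changed by −0.77, −0.62 and −0.41 (adjusted p = 0.141, 0.246 and 0.528). The day 3, 5 and 7 arrays overlapped with the pre-irradiation arrays for both probes. Within animals, both probes were lower in 4 of 4 at day 3 and in 5 of 6 at day 5. At day 7 the brighter probe was higher in 2 of 7 animals and the second in 4 of 7 (median change 0.38), and quantile normalization gave 0.057 for the brighter probe. In the fit blocked by animal the brighter probe changed by −0.81 (adjusted p = 0.0283) at day 3 and −0.65 (adjusted p = 0.0388) at day 5, which passes the looser threshold of 0.05 but not 0.005. The second probe changed by −1.08 (adjusted p = 0.0475) and −0.69 (adjusted p = 0.137), which passes 0.05 at day 3 only.

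CD68, the lysosomal glycoprotein, stood above its pre-irradiation mean at day 3 and below it at days 5 and 7, without a call. It ran from 10.45 to 11.20 before irradiation (median 10.65). At day 3 animals 1, 2, 4 and 7 had 11.78, 10.85, 11.99 and 12.01, and 3 of these 4 arrays stood above every pre-irradiation array. At day 5 the arrays ran from 9.39 to 11.61 (median 10.10), with 4 of 6 below every pre-irradiation array, and at day 7 from 8.76 to 11.41 (median 9.72), with 5 of 7 below. The log2 change was 0.91 ± 0.24 (adjusted p = 0.0127) at day 3, −0.37 ± 0.30 (adjusted p = 0.355) at day 5 and −0.76 ± 0.35 (adjusted p = 0.121) at day 7. Without animal 2 the day 3 change was 1.13 (adjusted p = 0.00439). Blocked by animal it was 1.0 (adjusted p = 0.0226), and 1.33 (adjusted p = 0.00109) with all groups in that fit. With slide as a block the day 5 sign turned (0.56, adjusted p = 0.803), and with session as a block the day 5 change was −0.59 (adjusted p = 0.552). The probe described as the CD68 molecule moved in the same order, by 1.05 ± 0.31 (adjusted p = 0.0206), −0.41 ± 0.36 (adjusted p = 0.399) and −1.11 ± 0.52 (adjusted p = 0.130), and its sequence is a different one.

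VCAN, the proteoglycan, stood above its pre-irradiation mean on all 3 days without a call. The probe lies at chr6:79769883-79769942 (plus strand). It ran from 11.66 to 13.57 before irradiation (median 12.74). At day 3 animals 1, 2, 4 and 7 had 13.66, 13.92, 13.83 and 13.42, at day 5 the arrays ran from 12.67 to 14.05 (median 13.63) and at day 7 from 13.17 to 15.25 (median 13.63). The groups overlapped on all 3 days. The log2 change was 1.05 ± 0.30 (adjusted p = 0.0176), 0.81 ± 0.30 (adjusted p = 0.0463) and 1.28 ± 0.34 (adjusted p = 0.0115), and with session as a block the day 7 change passed the threshold (1.28, adjusted p = 0.00357). The highest day 7 value was on the dim array of animal 2, and without it the change was 1.06 ± 0.29 (adjusted p = 0.0169). The mean level of 13 neutrophil genes ran from 9.98 to 11.33 before irradiation and from 10.17 to 12.47 at day 7, and the part of neutrophil RNA in the VCAN values was not tested.

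Compared directly with each other, the days after irradiation gave no member call at 0.005 with limma, and 1, 4 and 2 of 11 probes had an unadjusted p under 0.05 for day 5 against day 3, day 7 against day 3 and day 7 against day 5, where 10, 32.7 and 20.8% of all probes did. Of the 11 probes, 10 had lower means at day 5 than at day 3, with a median change of −0.24 over the 11 probes, and 0.0184% of all probes were called. Between day 3 and day 7 the median change was −0.69, 1.26% of all probes were called, and 2 members were lower at an adjusted p under 0.05 (8.43% of all probes). These were MS4A7 (−1.97 ± 0.56, adjusted p = 0.0355) and CD68 (−1.67 ± 0.48, adjusted p = 0.0345). In the fit blocked by animal they changed by −2.59 (adjusted p = 0.00634) and −2.35 (adjusted p = 0.00623), where no probe on the array was called. With all groups in 1 fit blocked by animal both were called, MS4A7 at −2.2 (adjusted p = 0.000870) and CD68 at −2.09 (adjusted p = 6.41e-05), against 13.6% of all probes. No member was called with session as a block (0.0921% of all probes) or with slide as a block (0.00737%). In the fit without blocks, CD36 changed by −2.36 ± 0.88 (adjusted p = 0.0885), FCN1 by −0.92 ± 0.34 (adjusted p = 0.0833) and CD14 by −0.94 ± 0.48 (adjusted p = 0.193) over the same interval. VCAN (0.23 ± 0.36) and the brighter LYZ probe (0.01 ± 0.33) had intervals that span 0. Between day 5 and day 7 the median was −0.35, and 0.00368% of all probes were called.

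The animals did not move alike at day 7. CD14 changed from 13.24 to 14.54 in animal 1, from 13.69 to 15.08 in animal 2 and from 13.08 to 14.10 in animal 3. It changed from 13.61 to 12.75 in animal 4, from 14.71 to 13.97 in animal 5, from 14.18 to 13.34 in animal 6 and from 13.60 to 12.58 in animal 7. CD14 was thus higher in 3 of 4 males and 0 of 3 females. MS4A7 stood higher in all 3 females, with a mean of 12.52 before irradiation and 14.38 at day 7, and in 2 of 4 males, with means of 12.55 and 12.68. The response of males minus that of females was 1.58 ± 0.69 for CD14 (limma interaction, adjusted p = 0.555) and −1.72 ± 0.62 for MS4A7 (adjusted p = 0.482). No member probe passed the test of this difference, and 0 of all 27134 probes tested did, while 2 of the 11 member probes, these ones, had an unadjusted p under 0.05, as did 8.69% of all probes.

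From array to array, some members went together. After the mean of each group was removed, Pearson's r over the 24 arrays of 7 animals was 0.81 for CD68 with MS4A7, 0.71 for CD68 with FCN1 and 0.50 for MS4A7 with FCN1. It was 0.64 for CD14 with VCAN and 0.56 for CD14 with CLEC7A, but 0.21 for VCAN with CLEC7A. For pairs of CD68, MS4A7 or FCN1 with CD14, VCAN or CLEC7A, r ran from −0.42 (MS4A7 with CD14 and with CLEC7A) to 0.096 (FCN1 with CLEC7A). LYZ had r of −0.51 with VCAN and 0.59 with FCN1. These values are descriptions, since arrays share animals, sessions and cell composition.

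**Figure D4:**
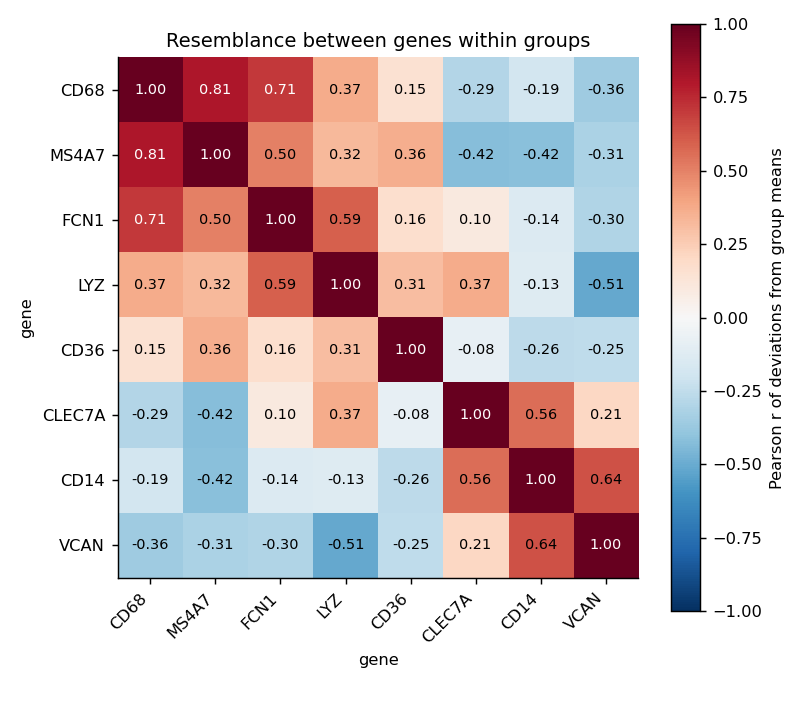
Pearson r between the brightest probes of the 8 genes over 24 arrays (22 for pairs with CD36, which had 2 spots left out), after subtracting each group's mean; both axes list the genes and colour gives r. CD68, MS4A7 and FCN1 are positively related (0.50 to 0.81), and CD14 is related to VCAN (0.64) and CLEC7A (0.56).

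The genes most alike each member over the 24 arrays without removal of group means were found among the brightest probes of all tested genes. For MS4A7 they were CD300H (r = 0.96), KLF4 (r = 0.94), a transcription factor of monocyte differentiation, and ASAH1 (r = 0.93), a lysosomal ceramidase. FCN1 was closest to RENBP (r = 0.91), MAPKAPK3 (r = 0.90) and CYBB (r = 0.89), the phagocyte oxidase subunit. VCAN was closest to MMP9 (r = 0.91), a gelatinase of neutrophil granules, DEF8 (r = 0.90) and CCDC88B (r = 0.89). CD68 was closest to MAMU-DRB5 (r = 0.89), an MHC class II chain, ALDH2 (r = 0.89) and ARRB1 (r = 0.88). CD14 was closest to CCM2 (r = 0.87), DEFB108B (r = 0.87) and C20H16orf59 (r = 0.86), and CLEC7A to GAA (r = 0.86), SRA1 (r = 0.82) and HSDL2 (r = 0.80). LYZ had no gene closer than ATP6V1G1 (r = 0.78), followed by SMIM20 (r = 0.72) and COPS2 (r = 0.72), and CD36, over its arrays with a value, was closest to CYP2G2 (r = 0.85), CDCP1 (r = 0.85) and PADI3 (r = 0.84).

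Other genes of monocytes were taken from lists of marker genes. Of 23 further classical monocyte genes tested, 5, 1 and 3 were higher on days 3, 5 and 7, and TYROBP, the DAP12 adaptor, fell at day 7 (−0.80 ± 0.18, adjusted p = 0.00482). By brightest probe, 5.96, 6.23 and 2.67% of all genes were higher and 7.58, 9.11 and 7.18% lower on these days, and of the members 2 of 8, 2 of 8 and 0 of 8 were higher. F13A1, coagulation factor XIII subunit A, rose by 2.18 ± 0.30 at day 3 (adjusted p = 0.000418), together with ITGAM, the integrin CD11b (1.73 ± 0.30, adjusted p = 0.00161), and, outside the naming rule and chosen after their values were seen, CST3 (0.95), RNASE6 (1.51) and FCER1G (1.67). All 10 platelet genes tested were also higher at day 3 (median 2.93), and the part of platelet RNA in the F13A1 value was not tested. ITGAM was the gene called at day 5 (1.5 ± 0.24, adjusted p = 0.000320). At day 7 the rises were in S100A12 (2.65 ± 0.45, adjusted p = 0.000599), a calcium-binding alarmin of neutrophils and monocytes, ITGAM (1.69) and S100A8 (1.35), the latter and TYROBP also chosen after their values were seen. The median change of this list was 0.92, 0.69 and 0.16 on the 3 days.

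Genes of nonclassical monocytes were called on the same days as MS4A7. Of 9 tested, 4 were higher at day 3 and 4 at day 5, and none was called at day 7, with medians of 1.54, 1.18 and 0.30. Of all genes, 5.96, 6.23 and 2.67% were higher on the 3 days. FCGR3, the Fc receptor CD16, rose by 2.84 ± 0.21 at day 3 (adjusted p = 9.92e-06) and 2.45 ± 0.26 at day 5 (adjusted p = 1.58e-05). TCF7L2, a transcription factor of these cells, rose by 2.2 ± 0.30 (adjusted p = 0.000417) and CX3CR1, the fractalkine receptor, by 1.78 ± 0.32 (adjusted p = 0.00171) at day 3. Within groups, the mean level of this list was related to MS4A7 with r = 0.81 and to CD68 with r = 0.85, and to CD14 with r = −0.27 and VCAN with r = −0.31. Such values were not particular to this list. For MS4A7 and CD68, r was 0.72 and 0.81 with myeloid transcription factors, and 0.53 and 0.70 with dendritic cell genes. RHOC at day 3 (1.45) and LST1 at day 5 (1.06), chosen after their values were seen, completed the called genes with TCF7L2 (1.70) and CX3CR1 (1.25) at day 5. FCGR3 is also expressed by NK cells, whose 9 genes had median changes of 0.40, 0.17 and 0.06 on the 3 days.

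By brightest probe, 5.96, 6.23 and 2.67% of all genes were higher on days 3, 5 and 7. Of 13 myeloid transcription factors tested, 4 were higher at day 3, 2 at day 5 and 1 at day 7. KLF4 rose by 2.32 ± 0.26 at day 3 (adjusted p = 0.000134). CEBPE, a factor of late granulocyte maturation, rose by 1.27 ± 0.23 on that day (adjusted p = 0.00196), and EGR2, chosen after its value was seen, by 1.05 ± 0.22 (adjusted p = 0.00362). Of 16 partners and signaling genes of CD14, CSF1R and CLEC7A, 1 was higher at day 3, 5 at day 5 and 0 at day 7. LYN, a Src-family kinase, rose by 1.30 ± 0.25 at day 3 (adjusted p = 0.00261), and the Toll-like receptors TLR6 (1.45 ± 0.30, adjusted p = 0.00236) and TLR2 (1.37 ± 0.24, adjusted p = 0.000784) rose at day 5, when CD14 changed by 0.88 without a call. The other 3 called at day 5 were LYN (0.94) and, chosen after their values were seen, TLR1 (1.28) and the adaptor TIRAP (0.80).

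**Figure D5:**
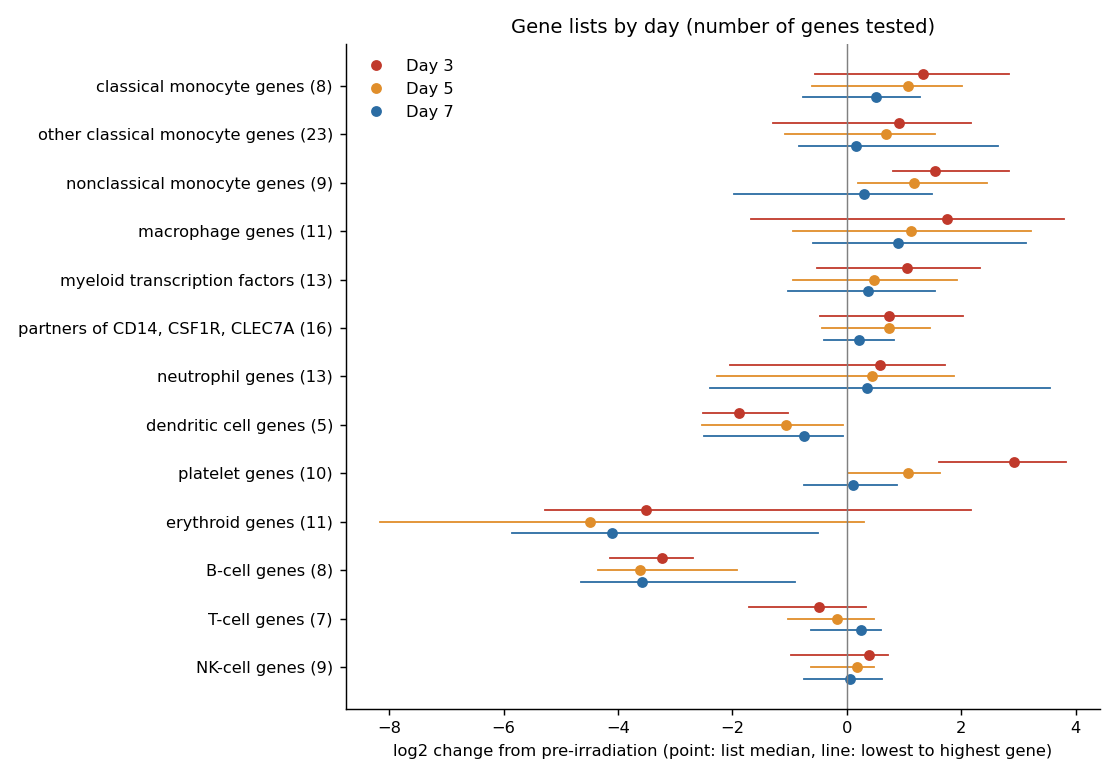
Log2 change from pre-irradiation of each gene list at day 3 (red), day 5 (orange) and day 7 (blue), with points at the list median and lines from the lowest to the highest gene; the number of genes tested stands beside each name. The 8 members have medians of 1.34, 1.08 and 0.51, platelet genes of 2.93, 1.07 and 0.11, and B-cell genes of −3.23, −3.62 and −3.58.

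Markers of other cells of blood also differed from pre-irradiation blood, some of them on all 3 days. Of all genes, 5.96, 6.23 and 2.67% were higher and 7.58, 9.11 and 7.18% lower on days 3, 5 and 7. Of 11 macrophage genes, 5 were higher at day 3, 3 at day 5 and 2 at day 7, led by CD5L (3.80 ± 0.83 at day 3, adjusted p = 0.00483), C1QC (3.35 ± 0.56 at day 3, adjusted p = 0.00121) and LYVE1 (3.22 ± 0.57 at day 5, adjusted p = 0.000720). The mean level of this list was only 5.38 to 5.82 before irradiation, the dimmest of the lists, so the sizes of these changes are rough values. Of 13 neutrophil genes, 1, 2 and 1 were higher and 0, 1 and 1 lower on days 3, 5 and 7, with LCN2 rising by 3.05 ± 0.54 and ELANE falling by 2.39 at day 7. The neutrophil counts of 1 higher at day 3 and 1 lower at days 5 and 7 were near the shares of all genes. All 10 platelet genes were higher at day 3, 2 at day 5 and none at day 7, led by GP1BA (3.83 ± 0.35 at day 3, adjusted p = 3.89e-05). All 8 B-cell genes were lower at days 3 and 5 and 7 of 8 at day 7, and 7, 9 and 9 of 11 erythroid genes were lower. Of 5 dendritic cell genes 2 were lower on each day, and of 7 T-cell genes 1, CD8B, was lower at day 3 (−1.71 ± 0.37, adjusted p = 0.00482). The part of these other cells in the member values was not tested.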

How the data were processed

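Whole-blood RNA was measured on 24 one-colour Agilent arrays. The deposited scanner files hold processed intensity per spot, made by the authors with Agilent Feature Extraction (10.7 per the labels, 12.0.2.2 per the file headers), already background-subtracted. The methods name a human array, whereas the headers name a rhesus design on rheMac2. The deposited value table holds log2 values for 18497 probes and was used as an alternative.

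From the scanner files, outlier spots were left out, spots of a probe were averaged, log2 was taken and each array was shifted to the median array, as in the study's methods. A probe needed 4 or more of 24 arrays with signal well above background (27138 of 43603 did) and was tested with limma 3.58.1 in R 4.3.3, for the 2 groups compared, two-sided. A probe was called at a Benjamini-Hochberg adjusted p under 0.005, the study's threshold. The fit was tested on simulated data. Gene lists use the brightest probe of each gene. Tables and figures used Python 3.11.15, numpy 2.4.6, pandas 2.3.3 and matplotlib 3.10.9. The number of arrays limits the precision.

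Replicate numbers name animals. Deviations of same-numbered arrays correlated at 0.129 to 0.651 over 31 pairs, and 30 of 31 were highest with their own number, so the numbers pair the samples. Repeated arrays of 1 animal are separate blood draws, and p-values measure the spread between these samples. The main fit held no term for animal, so its p-values leave the pairing out, and fits blocked by animal were alternatives. The members and lists were chosen with earlier results of these data known. Named genes are all members, up to 3 called genes with the largest change per other list, and the 3 genes most alike each member. Alternatives covered background correction, normalization, filters, the authors' values, blocks by animal, slide and scan session, all groups in 1 fit, unmoderated variances, a threshold of 0.05 and leaving out each animal.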

Additional observations from a re-analysis of the deposited data

Results flagged for a closer look

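Dixon's test at the 95% level was applied to the 43 groups of 4 to 10 arrays of the member probes, and 2 had an array that stood apart. Chance gives about 1 in 20 groups. For CD36 at day 7 the lowest array, of animal 3, was at 3.58, against 6.18 for the nearest array and 8.15 at the other end (gap over range 0.569), and the probe was not well above background there. For the dimmest CLEC7A probe at day 7 the highest array, of animal 2, was at 9.55, against 8.05 for the nearest and 6.98 at the other end (gap over range 0.586), and this is the array with the lowest share of probes well above background.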

How the results depend on the processing

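The main fit called 2 member probes at day 3, 2 at day 5 and 0 at day 7. Normexp background correction gave 0 at day 3 and 0 at day 5 (0.512 and 0.881% of all probes), and the slide block 0 and 0 (1.63 and 0.155%). The scan session block gave 0, 0 and 1 (VCAN), with 3, 5.44 and 14.4% of all probes called. The slide block rests on few shared arrays. The replicate block gave 1 at day 3 (MS4A7), 3 at day 5 (MS4A7 and CLEC7A) and 1 at day 7 (a CLEC7A probe), and changed no call between days. Of all probes it called 2.8, 15.4 and 8.58% on these 3 days. An adjusted p under 0.05 gave 8, 8 and 4 (35.7, 35.5 and 27.6% of all probes), and 2 for day 7 against day 3 (16%). Unmoderated variances gave 1 at day 5 (14.5% of all probes). At day 7, quantile normalization gave 1 (FCN1), the authors' values 1 (CLEC7A), the filter on every array of a group 1 (CLEC7A) and all groups in 1 fit 1 (VCAN). Of all probes, 9.34, 14.6, 14.3 and 14.3% were called under these settings, in the same order. Counts ranged from 2 to 3 (day 3), 1 to 2 (day 5) and 0 to 1 (day 7) when each animal was left out. The shares of all probes ranged from 3.18 to 12.9%, 10 to 15.8% and 6.1 to 9.49%. The replicate block with all groups in 1 fit, chosen after seeing the data, gave 5, 5 and 3, with 20.6, 23.2 and 19.3% of all probes. For day 7 against day 3 it gave 2, MS4A7 and CD68 (13.6% of all probes). Also chosen after seeing the data was the omission of the day 7 array of animal 2 (1 at day 7, FCN1, with 9.92% of all probes) or the pre-irradiation array of animal 5.

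The slide block reversed CD14 at day 3 (−0.11) and day 5 (−0.67), CD68 at day 5 (0.56) and CLEC7A at day 5 (−1.38). Quantile normalization reversed LYZ at day 7 (0.057). CD14 at day 7 reversed without animal 1 (−0.18), 2 (−0.19), 3 (−0.13) or the day 7 array of animal 2 (−0.18), with a range of −0.19 to 0.21 over the animals left out, and CD36 at day 7 without animal 6 (−0.49 to 0.59 over the animals). The cause was not tested. Within the first session no member was called at day 7 (7.72% of all probes), and within the second none between days 3 and 5 (0.0184%). Among single-gene values under alternatives, 472 kept direction and side of the threshold, 24 gained a call, 19 lost one and 10 reversed. Signal near background limits CD36 and the dimmest CLEC7A probe.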
